A study of Homo sapiens with 6 samples.

Results

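The WNT ligands, receptors, inhibitors and intracellular effectors described here were chosen by gene symbol from a table of read counts. They are 60 of its 26485 rows: 19 ligands, 10 frizzled receptors, 4 other receptors, 7 R-spondins and LGR receptors, 2 receptor-clearing ubiquitin ligases, 10 secreted inhibitors, 4 genes of the destruction complex and its feedback, and 4 TCF/LEF factors. Polyadenylated RNA was sequenced from HuCCT1, an established human line from a cancer of the bile duct. The AQP1 knockout group was clone 22, edited with CRISPR/Cas9 in AQP1, the gene of the water channel aquaporin-1, and the wild-type group was clone 1, which the labels also call a CRISPR clone. Both were grown in DMEM-F12 with 10% FBS, L-glutamine and pen/strep. Each group had 3 libraries, lettered a, b and c, and values are given in that order.

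Each genotype is 1 clone, so genotype and clone cannot be told apart. No label gives each letter a culture of its own, so the p-values rest on a spread among libraries that may be only technical. Library totals were 36925338 to 40905209 counts in knockout and 40536085 to 41724447 in wild type. AQP1 itself had 10, 7 and 7 counts in knockout libraries, against 2, 8 and 10 in wild-type libraries. AQP1 message was scarce in wild type too, and an edited gene can keep its transcript, so these few counts do not check the genotype labels. The clones also differed in markers of their labelled cell type. Of 8 cholangiocyte and epithelial markers 7 fell and CFTR did not pass, with a summed level of 1829 to 1860 CPM in knockout and 3315 to 3383 CPM in wild type, where CPM is counts per 1000000 counts of a library. The adhesion genes EPCAM and CDH1 averaged 40.7 and 15.0 CPM in knockout, against 484 and 202 CPM in wild type, while the keratin gene KRT7 stayed high, at 1613 CPM in knockout and 1751 CPM in wild type. The part of these differences in the WNT results was not tested. Of the immune markers CD68 and CD14 rose (summed level of the list 204.2 to 211.1 CPM in knockout and 106.8 to 112.6 CPM in wild type) with PTPRC at 0 in all libraries. Of the hepatocyte markers CPS1 rose (41.3 to 43.1 CPM and 6.22 to 7.03 CPM for the list) with TTR and CYP3A4 at 0, and 0 of the 3 tested endothelial markers passed.

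WNT ligands are lipid-modified secreted proteins that bind frizzled receptors together with the co-receptor LRP6 or with ROR and RYK receptors. In the canonical branch, receptor engagement stalls the complex of AXIN and APC that marks beta-catenin for degradation, and beta-catenin then enters the nucleus and works with TCF/LEF factors. Targets of that branch include its own brakes, such as AXIN2, NKD1, NOTUM, DKK1, RNF43 and ZNRF3. R-spondins and LGR receptors oppose RNF43 and ZNRF3, which remove frizzled from the cell surface. WNT5A and ROR2 are best known for a branch that does not use beta-catenin and acts on cell polarity and movement. In bile ducts and liver, WNT signals take part in growth and regeneration.

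Of the 60 genes, 33 had enough counts to be tested, 14 were counted below the filter and 13 had 0 counts in all 6 libraries. In edgeR's quasi-likelihood test with Benjamini-Hochberg (BH) adjustment over all 14405 genes tested, 20 members rose in the knockout, 12 fell and 1 did not pass at an adjusted p of 0.05. Over all genes tested 74.4% passed, 37.1% higher and 37.2% lower, so a call alone says little here. At 2-fold or more, 13 members rose and 6 fell, where 13.7% of all genes rose and 9.05% fell by that much. Of the 33, 6 passed the filter only through knockout libraries and 3 only through wild-type libraries, and the filter itself favours a difference in those 9. The other 24 reached the filter in both clones. Of these, 14 rose (58.3%) and 9 fell (37.5%), 7 rose by at least 2-fold (29.2%) and 3 fell by at least 2-fold (12.5%). Among all 12809 genes that reached the filter in both clones 75.3% passed, 35.7% higher and 39.6% lower, and at 2-fold 9.38% were higher and 7.89% lower. The median log2 fold change, knockout over wild type throughout, was 0.55 over the 24 members and -0.02 over the 12809 genes.

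**Figure D1:**
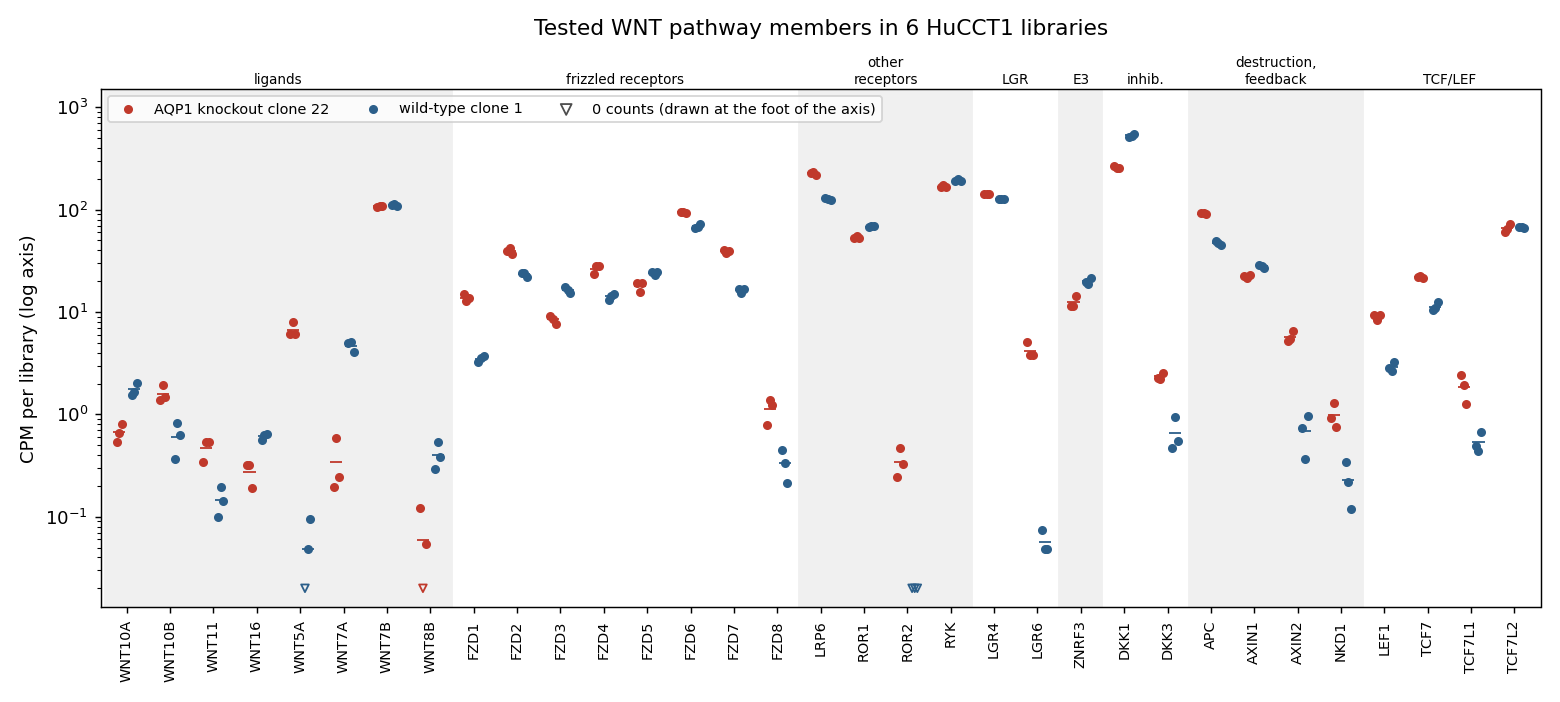
Level of each of the 33 tested members in each library, in CPM on a log axis, with knockout points left of wild-type points, a short line at each group mean and open triangles for 0 counts. WNT7B, LGR4 and TCF7L2 lie at nearly the same height in both clones, while WNT5A, ROR2 and LGR6 are near or at 0 in wild type and WNT7A is near 0 in knockout.

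Among the ligands, 1 gene carried most of the message in both clones and the low-level ligands were exchanged around it. WNT7B, a ligand of epithelia, had 106.6, 107.4 and 109.5 CPM in knockout libraries, against 110.8, 114.2 and 109.7 CPM in wild-type libraries. The groups lay close together without overlapping, and the small fall (log2 fold change -0.10, SE 0.03, BH-adjusted p = 0.00372, edgeR) was lost when libraries were scaled by their totals alone (adjusted p = 0.121). Per kb of exon, WNT7B made up 88.9 ± 1.71% of all ligand message in knockout and 89.3 ± 0.751% in wild type (SD, n = 3 each). The summed ligand level was 24.0 ± 0.532 CPM per kb in knockout and 24.7 ± 0.674 CPM per kb in wild type, a difference smaller than the sum of the SDs.

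WNT5A, the ligand of the branch without beta-catenin, and WNT7A, a ligand that can act through beta-catenin, changed in opposite directions. WNT5A (chromosome 3, 55465715 to 55505263, GRCh38) had 248, 324 and 223 counts in knockout libraries, against 0, 2 and 4 in wild-type libraries. Every knockout library was high and every wild-type library at or near 0, so it passed the filter through knockout libraries only, as WNT7A did through wild-type libraries. The ratio of summed counts, scaled by library totals, was 138 (exact 95% counting interval 63.1 to 377). By edgeR the log2 fold change was 6.96 (SE 0.38, BH-adjusted p = 1.05e-09), and 7.87 without wild-type library c. The counting interval is wider than this SE implies, so the size of the difference is uncertain. WNT7A (chromosome 3, 13816258 to 13880071) had 8, 24 and 9 counts in knockout, against 200, 210 and 168 in wild type. The groups were far apart, with the highest knockout library well under the lowest wild-type library (log2 fold change -3.81, SE 0.32, adjusted p = 9.64e-08, and -4.44 without knockout library b). Both genes lie on chromosome 3, and tested genes within 5 Mb of them had medians of -0.03 for WNT5A and -0.05 for WNT7A on the log2 fold change scale. WNT5A made up 4.37 ± 0.636% of ligand message per kb in knockout and 0.0306 ± 0.0310% in wild type, and WNT7A 0.350 ± 0.212% and 4.68 ± 0.512%.

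The bases upstream of both genes are shown because these ligands had the largest differences of all those tested. Each line gives the 250 bases before an annotated start (RefSeq, GRCh38.p14, minus strand, 5′ to 3′), with CG dinucleotides, the sites at which promoters are methylated, in capitals. Both WNT5A starts lie inside the gene's annotated span, and its outermost start is not shown.
WNT5A, upstream of the pair, chr3:55487307-55487556: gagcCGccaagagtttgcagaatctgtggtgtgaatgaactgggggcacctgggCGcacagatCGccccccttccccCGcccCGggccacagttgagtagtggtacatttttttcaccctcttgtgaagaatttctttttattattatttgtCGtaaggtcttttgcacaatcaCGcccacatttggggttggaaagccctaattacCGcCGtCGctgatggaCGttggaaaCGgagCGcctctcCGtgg
WNT5A, downstream of the pair, chr3:55481399-55481648: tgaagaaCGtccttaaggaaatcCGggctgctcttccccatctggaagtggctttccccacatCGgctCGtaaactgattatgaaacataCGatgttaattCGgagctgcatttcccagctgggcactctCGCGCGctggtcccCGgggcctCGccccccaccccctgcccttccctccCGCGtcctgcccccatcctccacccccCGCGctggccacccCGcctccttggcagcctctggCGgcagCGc
WNT7A, chr3:13880072-13880321: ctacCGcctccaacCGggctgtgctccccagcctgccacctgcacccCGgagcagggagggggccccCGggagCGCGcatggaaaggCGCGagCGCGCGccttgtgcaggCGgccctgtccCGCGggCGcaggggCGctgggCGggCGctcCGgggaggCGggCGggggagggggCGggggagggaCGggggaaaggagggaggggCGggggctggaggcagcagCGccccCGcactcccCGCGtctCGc
The WNT5A windows held 14 and 18 CG dinucleotides and the WNT7A window 29, where the median over 35116 such windows of all genes was 11 (quartiles 3 and 23). The WNT7A window thus had more CG than 85.9% of windows, and the WNT5A windows more than 55.2% and 63.2%. Methylation was not measured in these samples.

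Fibroblasts are a common source of WNT5A in tissue, so their markers are given beside it. Of 8 fibroblast markers 4 rose, 1 did not pass and 3 were below the filter, with a summed level of 35.5 to 38.4 CPM in knockout and 15.9 to 18.1 CPM in wild type. Those that rose were DCN, LUM, PDGFRA and PDGFRB. COL1A1 averaged 9.07 CPM in knockout and 9.89 CPM in wild type, and COL1A2, a chain of the same collagen, 0 and 0.0484 CPM. COL3A1 averaged 0.0571 and 0.0162 CPM and THY1 0.0353 and 0.0721 CPM. The part of such cells or genes in the WNT5A difference was not tested. Both groups were clones of a cell line and not tissue. In bulk RNA, a change in the share of cells that express a gene and a change in RNA per cell cannot be told apart.

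The other tested ligands were low. WNT10B, which serves epithelial stem cells and bone, had 56, 79 and 55 counts in knockout libraries, against 15, 34 and 26 in wild-type libraries, and rose (log2 fold change 1.34, SE 0.33, adjusted p = 0.0023). WNT10A, its close relative in skin and teeth, had 22, 27 and 30 counts in knockout, against 63, 69 and 85 in wild type, and fell (-1.44, SE 0.28, adjusted p = 0.000404). These relatives thus moved in opposite directions with no overlap between groups. WNT16 had 13, 13 and 7 counts in knockout, against 23, 26 and 27 in wild type (-1.19, SE 0.40, adjusted p = 0.0159), passing the filter through wild-type libraries only. Its neighbours within 5 Mb had a median of -0.58, and its call was lost without knockout library c (adjusted p = 0.0695). WNT11 and WNT8B, below the level set for naming and named after their values were seen, rose with 14, 22 and 20 against 4, 8 and 6 counts, and fell with 5, 0 and 2 against 12, 22 and 16 counts. WNT11 passed the filter through knockout libraries only and WNT8B through wild-type libraries only, and the WNT8B log2 fold change of -2.77 was -3.86 without knockout library a and -2.18 without knockout library b.

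Ligands below the filter had at most 34 counts in a library. WNT3, a canonical ligand, had 6, 34 and 5 counts in knockout libraries, against 2, 1 and 2 in wild-type libraries. Only knockout library b stood out, and without it the knockout counts were 6 and 5. WNT9A had 4, 7 and 13 counts against 0, 4 and 3, and WNT2B, WNT4 and WNT5B had at most 14 in any library. WNT1, WNT2, WNT3A, WNT6, WNT8A and WNT9B had 0 counts in all 6 libraries, and 3 counts, taken as the floor, equal at most 0.0812 CPM.

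**Figure D2:**
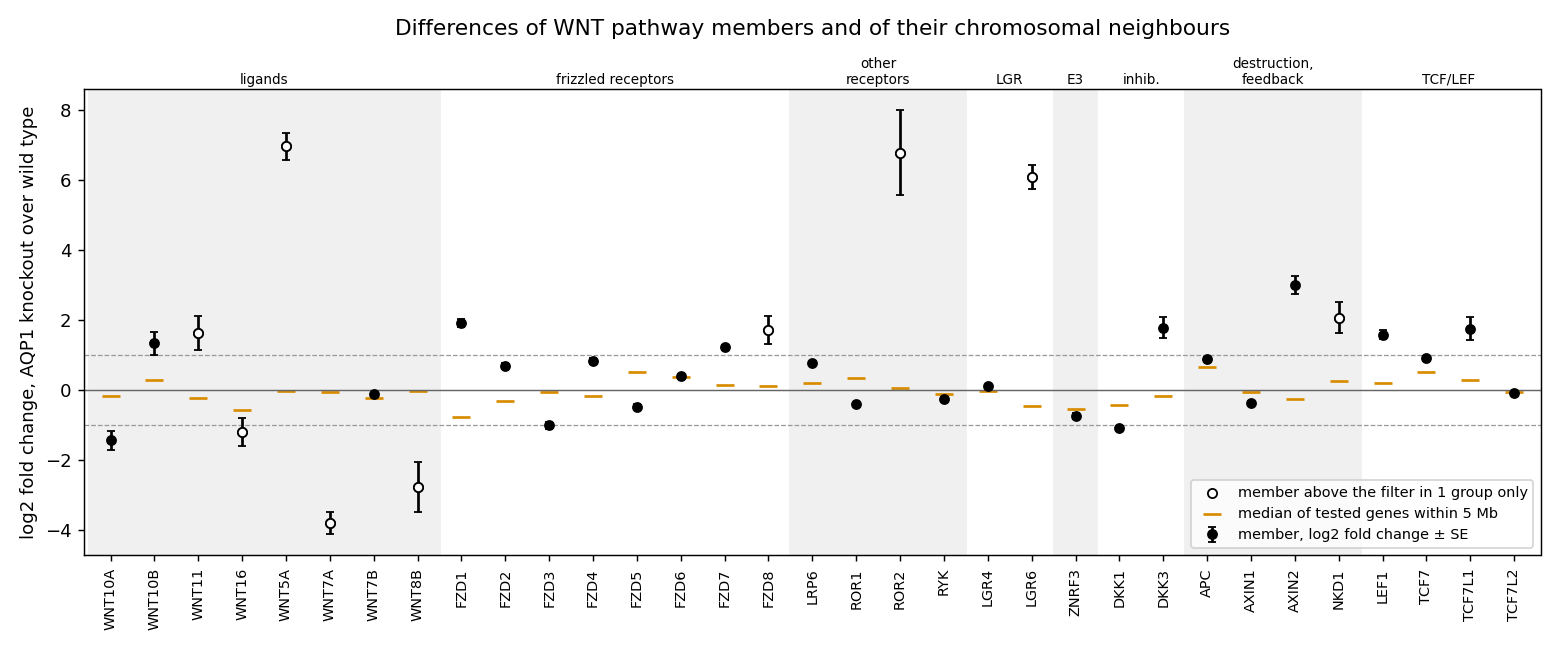
Log2 fold change, knockout over wild type, of each tested member with its SE, with open circles for members above the filter in 1 clone only, orange marks for the median of tested genes within 5 Mb and dashed lines at 2-fold. AXIN2 and FZD1 lie far above the marks of their neighbours, while APC, ZNRF3 and TCF7 lie nearer to theirs.

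The frizzled receptors, which bind WNT through a cysteine-rich domain, had a higher summed level in the knockout clone. Of 10, 6 rose and 2 fell, and of the 7 above the filter in both clones 5 rose and 2 fell (71.4% and 28.6%, beside 35.7% and 39.6% of all such genes). FZD9 and FZD10 had 0 counts in all libraries. Their summed level per length was 62.4, 62.8 and 60.8 CPM per kb in knockout libraries, against 39.9, 39.9 and 40.8 CPM per kb in wild-type libraries. All 3 knockout libraries exceeded all 3 wild-type libraries. FZD6 was the most abundant per length in both clones, at 24.0 CPM per kb in knockout and 17.5 in wild type, followed by FZD2 (18.7 and 11.1) and FZD7 (10.2 and 4.22). The steps between these 3 were larger than their spread over libraries in both clones.

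FZD1, FZD2 and FZD7 are close relatives in sequence, and all rose. FZD1 (chromosome 7, 91264433 to 91271326) had 15.1, 12.9 and 13.6 CPM in knockout libraries, against 3.26, 3.53 and 3.74 CPM in wild-type libraries. The groups were well separated (log2 fold change 1.92, SE 0.11, BH-adjusted p = 1.99e-09, edgeR). The 43 tested genes within 5 Mb of FZD1 had a median of -0.77, opposite in sign. FZD7 had 40.8, 37.6 and 39.7 CPM in knockout, against 16.9, 15.3 and 16.7 CPM in wild type, and rose by 1.22 on the log2 scale (SE 0.06, adjusted p = 4.13e-10). FZD2 rose by 0.69 (SE 0.07), and the authors' counting could split reads among such relatives in ways that the sources used here do not give.

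FZD4 rose by 0.84 (SE 0.08), but 17% of its exon bases overlap PRSS23 on the opposite strand, and whether the counts used strand is not known, so its value is uncertain. FZD6, known for tissue polarity, rose by 0.40 (SE 0.04) where its neighbours had a median of 0.36. FZD8 had 32, 57 and 46 counts in knockout libraries, against 18, 14 and 9 in wild-type libraries, and passed the filter through knockout libraries only (1.72, SE 0.39, adjusted p = 0.00127). The 2 frizzled genes that fell were FZD3 and FZD5. FZD3, which guides axons and planar polarity, had 9.09, 8.56 and 7.72 CPM in knockout, against 17.5, 16.5 and 15.3 CPM in wild type (-1.01, SE 0.09, adjusted p = 2.05e-07). FZD5, which can signal for WNT7B and WNT5A, fell by 0.48 (SE 0.08) although its neighbours had a median of 0.50. Of frizzled message per kb, FZD7 made up 16.4 ± 0.818% in knockout and 10.5 ± 0.518% in wild type, and FZD5 4.33 ± 0.527% and 8.93 ± 0.310% (SD, n = 3 each).

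**Figure D3:**
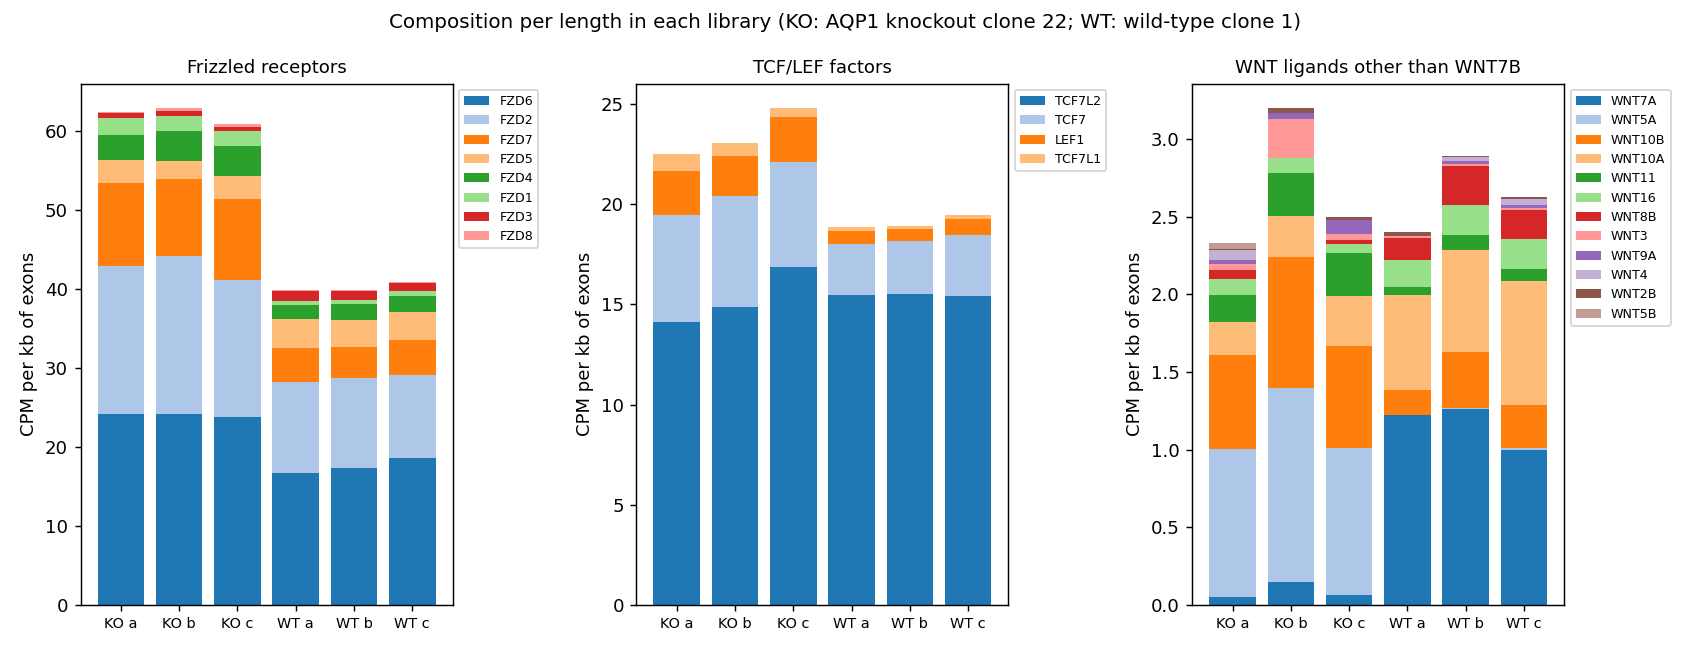
Stacked CPM per kb of exon in each library, knockout libraries left of wild-type libraries, for the frizzled receptors, the TCF/LEF factors and the ligands other than WNT7B. The frizzled stacks reach 60.8 to 62.8 in knockout and 39.9 to 40.8 in wild type, and in the ligand panel WNT5A is tall in the knockout libraries and WNT7A in the wild-type libraries.

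LRP6, the co-receptor of the canonical branch, had 228.2, 235.9 and 219.2 CPM in knockout libraries, against 130.2, 128.2 and 124.0 CPM in wild-type libraries, and rose by 0.78 on the log2 scale (SE 0.03, adjusted p = 6.01e-11). The groups did not overlap, and its neighbours had a median of 0.21. RYK, an atypical receptor kinase and per length the most abundant receptor outside the frizzled family, had 167.4, 172.6 and 164.8 CPM in knockout, against 189.6, 201.0 and 188.7 CPM in wild type, and fell by 0.25 (SE 0.03, adjusted p = 5.33e-06). ROR1, a receptor of WNT5A, fell by 0.41 (SE 0.04) to 53.4 ± 1.66 CPM, against 68.2 ± 0.825 CPM in wild type. Its relative ROR2 had 10, 19 and 12 counts in knockout and 0 in all 3 wild-type libraries, which makes it at least 14.2-fold higher in knockout, taking 3 counts over the wild-type group. ROR2 passed the filter through knockout libraries only, which favours a difference, and it was no longer tested without knockout library b. It was too low for the naming rule and was named after its values were seen. Even in knockout ROR2 stayed far below ROR1, at 0.0712 CPM per kb beside 8.10 CPM per kb.

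LGR4 was the abundant R-spondin receptor in both clones, with 141.6, 142.7 and 141.3 CPM in knockout libraries, against 127.2, 127.3 and 126.0 CPM in wild-type libraries. It rose by only 0.11 on the log2 scale (SE 0.02, adjusted p = 0.0013). LGR6 (chromosome 1, 202193799 to 202319761), a marker of stem cells in skin, had 206, 156 and 139 counts in knockout, against 3, 2 and 2 in wild type. The clones were widely separated, at a ratio of summed counts of 74.5 (counting interval 35.9 to 186) and a log2 fold change of 6.09 (SE 0.34, adjusted p = 1.19e-09). LGR6 passed the filter through knockout libraries only, which favours a difference. Its neighbours had a median of -0.47. LGR5, the intestinal stem cell marker and a canonical target, had 6, 22 and 12 counts in knockout, against 2, 6 and 0 in wild type, and was below the filter. The R-spondins RSPO1, RSPO2 and RSPO3 had 0 counts in all libraries, and RSPO4 had 6 counts in knockout library c and 0 elsewhere.

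The receptor-clearing ubiquitin ligases are canonical targets. ZNRF3 had 11.4, 11.5 and 14.2 CPM in knockout libraries, against 19.6, 18.7 and 21.6 CPM in wild-type libraries, and fell by 0.75 on the log2 scale (SE 0.09, adjusted p = 4.4e-06). Its neighbours on chromosome 22 had a median of -0.55. RNF43, its relative, had 0 counts in all 6 libraries. Of its exon bases 58.5% overlap another annotated gene on the same strand, which is not itself a row of the count table. SUPT4H1, which is a row, overlaps 1.94% on the same strand. How the counting treated shared bases is not known.

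DKK1, which blocks LRP6 and is a canonical target, was per length the most abundant member in both clones and fell. It had 267.5, 256.6 and 256.8 CPM in knockout libraries, against 518.2, 524.5 and 554.5 CPM in wild-type libraries. The knockout libraries lay near 260.3 ± 6.24 CPM and the wild-type libraries near 532 ± 19.4 CPM, with no overlap (log2 fold change -1.09, SE 0.03, adjusted p = 9.9e-13). Its neighbours had a median of -0.43, and 11.8% of its exon bases overlap the antisense gene PRKG1-AS1. DKK3, a relative that does not bind LRP6 in the manner of DKK1, had 93, 91 and 94 counts in knockout, against 19, 39 and 23 in wild type, and rose (1.78, SE 0.29, adjusted p = 8.18e-05).

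The bases before the DKK1 start are shown because they held the single match to the TCF/LEF core motif searched, among the members with a sequence at hand. The motif was searched as CTTTGAA or CTTTGAT on both strands of the 250 bases before each start (RefSeq, GRCh38.p14), and capitals mark the match, which begins 95 bases before the start.
DKK1, plus strand, chr10:52314031-52314280: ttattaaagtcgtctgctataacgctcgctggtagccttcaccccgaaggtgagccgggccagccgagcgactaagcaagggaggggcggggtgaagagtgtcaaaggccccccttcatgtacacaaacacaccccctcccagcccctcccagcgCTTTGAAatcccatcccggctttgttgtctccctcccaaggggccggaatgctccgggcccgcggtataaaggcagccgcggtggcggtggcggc
Sequences were found for 41 of the 60 members, in 51 windows, of which 1 (1.96%) held the motif, beside 5.94% of all 35116 windows. The feedback genes AXIN2, NKD1, ZNRF3, LGR5 and NOTUM had no sequence and were not searched. Other forms of the motif were not searched either. A match of letters is not a bound site, and these short windows leave out enhancers.

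The remaining secreted inhibitors were close to 0. NOTUM, an enzyme that removes the lipid from WNT and a canonical target, had 0, 3 and 9 counts in knockout libraries and 0 in all wild-type libraries. SFRP1, a decoy that binds WNT, had 10, 2 and 10 counts in knockout, against 6, 0 and 5 in wild type, so its groups overlapped. DKK2, DKK4, SFRP2, SFRP4 and WIF1 had at most 8 counts in any library, and SFRP5 had 0 in all.

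AXIN2, the scaffold widely read as a canonical target, was the feedback gene that rose most. AXIN2 (chromosome 17, 65528563 to 65561648) had 214, 222 and 243 counts in knockout libraries, against 30, 15 and 40 in wild-type libraries, or 5.75 ± 0.726 CPM in knockout and 0.687 ± 0.301 CPM in wild type. The lowest knockout library was several times the highest wild-type library (log2 fold change 3.0, SE 0.27, BH-adjusted p = 1.89e-07, edgeR). The 63 tested genes within 5 Mb had a median of -0.27. Of the AXIN2 exon bases 28.4% overlap another annotated gene on the same strand, which is not itself a row of the count table. NKD1, an antagonist of Dishevelled, had 38, 53 and 28 counts in knockout, against 14, 9 and 5 in wild type, and passed the filter through knockout libraries only (2.07, SE 0.44, adjusted p = 0.000757).

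The constitutive scaffolds moved less. AXIN1 fell by 0.37 (SE 0.06) to 22.5 ± 0.803 CPM in knockout, against 28.0 ± 1.22 CPM in wild type. AXIN1 was still more abundant than AXIN2 in both clones, at 6.17 beside 1.24 CPM per kb in knockout and 7.68 beside 0.148 CPM per kb in wild type. APC, the tumour suppressor of the complex, had 92.3, 91.8 and 90.2 CPM in knockout libraries, against 49.6, 46.8 and 45.4 CPM in wild-type libraries, and rose by 0.90 (SE 0.04). APC lies on chromosome 5 among genes with a median of 0.67, and its own value was 0.23 above that median.

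Among the nuclear factors the composition shifted. TCF7L2, the main TCF of gut and liver epithelium, had 61.1, 64.5 and 73.0 CPM in knockout libraries, against 67.0, 67.1 and 66.8 CPM in wild-type libraries. The groups overlapped and the test did not pass (log2 fold change -0.07, SE 0.05, adjusted p = 0.257), except without knockout library c (-0.12, adjusted p = 0.0198). LEF1, a TCF relative and canonical target, had 9.38, 8.41 and 9.45 CPM in knockout, against 2.86, 2.64 and 3.26 CPM in wild type, and rose by 1.58 (SE 0.13, adjusted p = 9.61e-08). Its exons overlap LEF1-AS1 on the opposite strand over 6.65% of their bases. TCF7, which like LEF1 exists in activating and inhibitory forms, rose by 0.91 (SE 0.08) with 21.9, 22.7 and 21.5 CPM in knockout, against 10.4, 10.9 and 12.6 CPM in wild type. Its neighbours on chromosome 5 had a median of 0.51. TCF7L1, which mostly represses, had 98, 79 and 47 counts in knockout, against 20, 18 and 28 in wild type (1.75, SE 0.33, adjusted p = 0.000256). Of TCF/LEF message per kb, TCF7L2 made up 65.2 ± 2.68% in knockout and 81.1 ± 1.63% in wild type, TCF7 22.9 ± 1.54% and 14.4 ± 1.17%, and LEF1 9.25 ± 0.638% and 3.64 ± 0.333% (SD, n = 3 each).

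Feedback targets moved in both directions. Of the 9 chosen for description, AXIN2, LEF1 and TCF7 rose, as did NKD1 through knockout libraries only. DKK1 and ZNRF3 fell, LGR5 and NOTUM were below the filter and RNF43 was at 0. With 37.1% of all tested genes higher and 37.2% lower, calls in both directions are common in these data. Neighbours had a median of at least 0.5 in size for 6 of the 33 tested members: APC, TCF7 and FZD5 in raised stretches, and FZD1, WNT16 and ZNRF3 in lowered ones. The share of all genes in such stretches was not computed, so this count is no trait of the members. FZD1 and FZD5 moved against their stretch. The part of these stretches in the members' differences was not tested.

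The rest of the pathway was read from 6 lists of genes outside the symbol rule. Over all genes tested 37.1% rose and 37.2% fell, and each list's counts are read beside those shares. Of 9 tested ligand-side genes 7 rose and 2 fell, and over the 8 above the filter in both clones the median log2 fold change was 1.13. GPC6, a glypican of the cell surface, had 68.4 ± 1.09 CPM in knockout and 6.17 ± 0.288 CPM in wild type (log2 fold change 3.42, SE 0.06) among neighbours with a median of 0.69. TRABD2B, a protease that inactivates WNT, had 0.930 ± 0.289 CPM in knockout and 0 counts in wild type, at least 38.2-fold higher. The glypican gene GPC4 and the syndecan gene SDC1 fell by 0.20 (SE 0.04) and 0.24 (SE 0.03). PORCN, the enzyme that attaches the lipid to every WNT, had 183.0, 191.6 and 192.7 CPM in knockout libraries, against 26.9, 25.5 and 28.9 CPM in wild-type libraries (2.75, SE 0.04, adjusted p = 2e-15). It was named after its values were seen, as was WLS, which carries WNT to the surface and rose by 0.34 (SE 0.04).

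Of 10 tested receptors and antagonists outside the rule, 5 rose, 2 fell and 3 did not pass, with a median of 0.53 over 9. LRP4, a relative of LRP6 that binds WNT antagonists in bone, had 12.7 ± 1.15 CPM in knockout and 1.86 ± 0.0826 CPM in wild type (2.71, SE 0.13). APCDD1L rose to 5.10 ± 0.900 CPM in knockout, against 0.211 ± 0.0581 CPM in wild type, through knockout libraries only. MUSK, a receptor kinase with a frizzled-like domain, fell by 2.87 (SE 0.25) to 0.603 ± 0.205 CPM, against 4.24 ± 0.286 CPM in wild type. LRP5, the partner of LRP6, fell by 0.18 (SE 0.02).

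**Figure D4:**
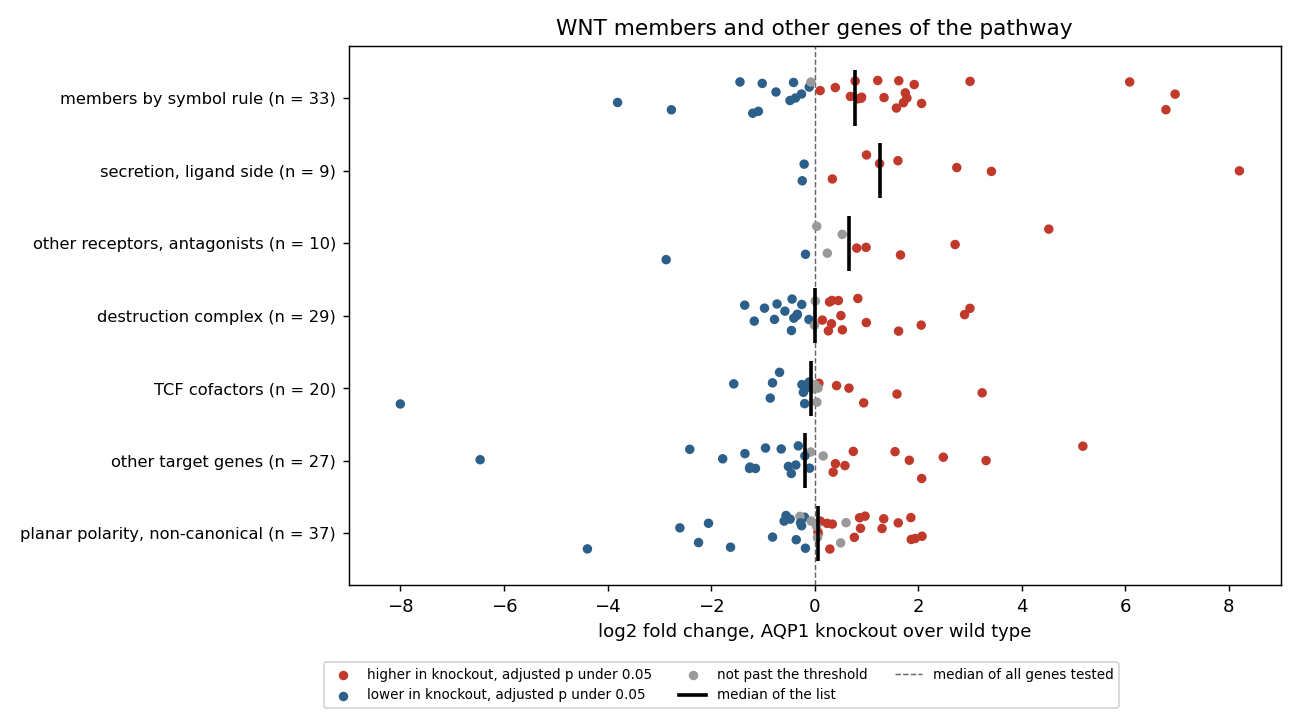
Log2 fold change, knockout over wild type, of every tested member and of the tested genes of 6 other pathway lists, 1 point per gene, with a bar at each list's median and a dashed line at the median of all genes tested. The bars include genes above the filter in 1 clone only, so they can differ from the medians in the text. They lie at 0.78 for the members and 1.255 for the secretion list, right of the line like that of the other receptors. The bar of the other target genes lies left of the line, at -0.19, and the remaining bars lie close to it. Points for ROR2, TRABD2B and PYGO1, at 0 in 1 clone, are fitted values and no measure of size.

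Of 29 destruction complex genes and partners, 14 rose, 13 fell and 2 did not pass, with a median of -0.00 over 27. CTNNB1, the beta-catenin gene and named after its values were seen, had 293.7, 280.8 and 281.9 CPM in knockout libraries, against 200.8, 193.8 and 205.1 CPM in wild-type libraries, and rose by 0.46 (SE 0.03). Protein level and location of beta-catenin were not measured here. The Dishevelled-binding genes DACT3 and CXXC4 rose through knockout libraries only, to 0.826 ± 0.314 CPM in knockout against 0.0970 ± 0.0477 CPM in wild type, and to 1.90 ± 0.351 CPM against 0.243 ± 0.194 CPM. PPP2R5A, a phosphatase subunit, fell by 1.35 (SE 0.07) among neighbours with a median of -0.90. The kinase gene CSNK1E was low in both clones and fell by 1.17 (SE 0.30), to 0.644 ± 0.139 CPM against 1.39 ± 0.190 CPM in wild type. Overlaps with other genes were examined for members only.

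Of 20 TCF cofactors, 6 rose, 10 fell and 4 did not pass, with a median of -0.07 over 18. The co-repressor genes TLE2 and TLE4 rose by 3.24 (SE 0.34) and 1.59 (SE 0.08), TLE2 through knockout libraries only. BCL9L, which links beta-catenin to its co-activators, fell by 1.56 (SE 0.03) to 147.2 ± 6.05 CPM in knockout, against 418.4 ± 7.86 CPM in wild type. PYGO1, a co-activator that binds BCL9 proteins, had 0 counts in knockout and 0.776 ± 0.313 CPM in wild type, at least 30.7-fold lower.

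Of 27 tested target genes outside the rule, 10 rose, 15 fell and 2 did not pass, with a median of -0.34 over 24. GLUL, the glutamine synthetase gene and in liver a target of beta-catenin, had 0.392, 0.489 and 0.271 CPM in knockout libraries, against 32.4, 34.0 and 33.1 CPM in wild-type libraries. It fell by 6.46 on the log2 scale (SE 0.12, adjusted p = 1.69e-14), while its neighbours had a median of -0.74. PROM1, a stem cell surface gene, fell by 2.41 (SE 0.15). TBX3, a transcription factor gene, rose by 2.49 (SE 0.07) to 46.8 ± 3.37 CPM, against 8.04 ± 0.623 CPM in wild type, and TIAM1, an activator of Rac, rose to 1.64 ± 0.328 CPM, against 0.0402 ± 0.0498 CPM, through knockout libraries only.

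Of 37 genes of planar polarity and other branches without beta-catenin, 16 rose, 14 fell and 7 did not pass, with a median of 0.06. PRKCA, a calcium-dependent kinase gene, had 324.8 ± 8.50 CPM in knockout and 74.2 ± 1.85 CPM in wild type (2.08, SE 0.03), and PRICKLE4 rose by 1.94 (SE 0.31). The calcium-signalling genes CAMK2B and NFATC2 fell, CAMK2B to 0.519 ± 0.298 CPM against 10.6 ± 0.704 CPM in wild type, and NFATC2 to 6.49 ± 0.180 CPM against 37.95 ± 0.463 CPM.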

How the data were processed

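The library kit was a stranded TruSeq kit for mRNA, per the labels' protocols. The authors deposited read counts per gene symbol, as whole numbers without normalization. Trimmomatic 0.33, FastQC, HISAT2, edgeR and build hg38 are named, per the submitters' processing notes. The counter, its strand mode and its gene models are each not given in the sources used here.

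Groups and letters follow the samples' genotype and clone labels. Counts were filtered with filterByExpr (about 10 counts, or 0.245 CPM, in 3 libraries), scaled by TMM and tested with edgeR 4.0.16 in R 4.3.3 by a quasi-likelihood F test of knockout over wild type across all 6 libraries, with Benjamini-Hochberg adjustment. SE was obtained as the size of the log2 fold change over √F. Where 1 clone was near 0, this SE can be too small. For WNT5A and LGR6 the counting intervals were wider than their SEs imply. The common biological coefficient of variation was 0.0652. Levels are means ± SD over 3 libraries. Alternatives were RLE factors, library totals, no filter, 1 CPM in 3 libraries, DESeq2 1.42.0, limma-voom (3.58.1), the letters as a block, and each library left out. The steps were tested on simulated data. Within groups, pairs of libraries differed by more than sampling noise (chi-square per degree of freedom 4.18 to 7.6).

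Levels per kb used merged exons of the GENCODE 29 basic set. Coordinates came from RefSeq on GRCh38, the assembly of hg38, which matched 25292 rows by current or older symbol. Neighbours are tested genes that start within 5 Mb. Intervals (exact binomial) and floors cover counting error only, and they treat each count as independent. Libraries of a group differed by more than sampling noise, and even numbers were in excess among low counts. The intervals may thus be too narrow and the floors too strong. Genes named are members past the threshold at 2-fold or more with at least 0.5 CPM in either group, 9 feedback genes, the most abundant member of each role, and in each list the 2 largest rises and falls. Every member at 0 or below the filter is also named. LRP6, APC, AXIN1, FZD2, FZD4, FZD5 and ROR1 fall outside this rule and were described after their values were seen. The members and lists were chosen with earlier results of these data known.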

Additional observations from a re-analysis of the deposited data

How the results depend on the processing

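Of 422 values of the 33 tested members under 13 alternatives, 419 kept their direction and their side of the threshold and 0 reversed, which does not speak of the size of the fold change. The exceptions were WNT16 without knockout library c, WNT7B with library totals alone, and TCF7L2, which passed without knockout library c. Members that an alternative left untested gave no value there and are not in this count. These were ROR2 without knockout library b and the members dropped by the minimum of 1 CPM. The number of members called at 2-fold or more was 19, and 12 with a minimum of 1 CPM in 3 libraries, where 27 members in place of 33 were tested. Leaving out 1 library gave 17 to 20 members at 2-fold. The letters a, b and c are not stated to pair libraries. Same-letter deviations from group means correlated at -0.02 to 0.06, and different-letter deviations at -0.05 to 0.04. These values cannot show whether libraries of the same letter were handled together. With the letters as a replicate block, 32 members were called, as without it, and 19 at 2-fold. The list counts stayed within 1.5 times under every alternative run. A floor of 3 counts equals 0.0719 to 0.0812 CPM, depending on the library, which limits what can be said of members near 0.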

Other observations

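Even numbers were in excess among the lowest counts of the whole table. Over all rows and libraries, 2405 values equalled 1 and 4794 equalled 2, while 1354 equalled 3 and 2577 equalled 4. Among members near 0 this touches WNT5A in wild type, with 0, 2 and 4 counts, and DKK2, SFRP2 and WIF1, whose single non-zero value in 6 libraries was 2 each. How mates of a read pair were counted is not given in the sources used here.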
